A study of Apera spica-venti with 32 samples.

Results

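Enzymes of nitrogen assimilation, of amino acid synthesis and turnover, and of the phenylpropanoid route to lignin were followed in leaves of silky windgrass (Apera spica-venti), a grass weed of cereal fields. The members were the features of the authors' table of differential expression whose description matched any of 17 enzyme words, such as glutamine synthetase, aminotransferase, cinnamoyl or cysteine synthase. These were 46 of 39590 features, where a feature is 1 predicted reading frame on an assembled transcript, and they lay on 37 contigs. A feature carried a description only where the authors had listed it, at an adjusted p under 0.05, in at least 1 of 4 comparisons between classes or treatments. The members were therefore chosen by measured values of these libraries, the differences between classes and between sprayed and untreated leaves. Those differences are given as descriptions. Where a member passes a threshold in them, or still passes it under other processing, that is no independent evidence, since the choice favoured such members. Differences between populations of the same class did not choose them directly and were tested.

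Plants take up nitrate, reduce it with nitrate reductase and nitrite reductase, and bind the ammonium into glutamine and glutamate in the chloroplast, where the same enzymes also recover ammonium released by photorespiration. Aminotransferases then pass the amino group on to other carbon skeletons. Phenylalanine, made through the shikimate pathway, is deaminated by phenylalanine ammonia-lyase to cinnamate, from which monolignols, lignin, flavonoids and hydroxycinnamic acid amides are built, several of them known from defence in grasses.

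Leaf RNA came from 4 populations, S1 and S2, which are susceptible, and R1 and R2, which resist several herbicides. Greenhouse plants with young leaves were left unsprayed or received 45 g a.i. per ha of pinoxaden, which blocks acetyl-CoA carboxylase, the first step of fatty acid synthesis. Leaves were collected 8 h after the spray. The 32 libraries are 8 groups of 4 biological replicates, 1 for each population with and without herbicide, and each replicate pooled 3 plants. The labels record no mock spray and no harvest hour of the untreated plants, so the herbicide, the act of spraying and the time of day cannot be told apart, and with 2 populations per class, resistance and descent cannot be told apart either.

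Library totals ran from 26213800 to 46062800 counts with a median of 34343000, and the members held 0.199% to 0.249% of them. Features described as photosynthetic, the check of the leaf label, held 36.0% to 43.9% of the counts. No described feature matched the words for root or vascular tissue, so RNA of such tissue could not be checked. Features named for fungi, bacteria or viruses held 0.00917% to 0.0136%. Only described features could be matched, so this is no upper limit of foreign RNA, and a name does not show where the RNA came from. Levels are CPM, counts relative to library size, scaled with TMM factors of 0.820 to 1.26, and they may be compared between libraries but not between genes, since no transcript lengths were used. Differences are log2 values ± the standard error of an edgeR quasi-likelihood fit over 25036 features, and a feature is said to be called at an adjusted p under 0.05. In leaf extracts, fewer cells of a type and less RNA per cell cannot be told apart. Of the 46 members 45 passed the filter on low counts, and a phenylalanine ammonia-lyase (TRINITY_DN107652_c0_g2_i2.p1) did not. By enzyme role there were 9 members of nitrogen assimilation on 4 contigs, 18 of the lignin route on 16 contigs, 6 matched by chorismate, shikimate or tryptophan synthase, 3 of cysteine and proline metabolism, and 10 aminotransferases. The lignin route was grouped by words of the descriptions alone. It therefore includes hydroxycinnamoyltransferases named for amide synthesis and leaves caffeoylshikimate esterases to the group matched by shikimate. No member was a nitrite reductase, an asparagine synthetase or a chalcone enzyme.

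In the authors' deposited table, 43 members were listed for the response of susceptible plants to spraying, 21 of them higher and 22 lower, against 8 for the response of resistant plants, 8 for untreated resistant against susceptible plants and 4 for sprayed resistant against susceptible plants. Of the members, 31 were listed in 1 comparison only, 13 in 2 and 2 in 3. The members nearest below the threshold of 0.05 in the authors' deposited table were a reading frame of aminodeoxychorismate synthase (TRINITY_DN6828_c0_g1_i73.p2) in the response of S, with an adjusted p of 0.0479 and a log2 value of -0.40, and cinnamoyl-CoA reductase 1 (TRINITY_DN245_c0_g2_i2.p2) between the untreated classes, with 0.0425 and 0.47. For the response of R it was a phenylalanine ammonia-lyase (TRINITY_DN24037_c0_g1_i1.p1), with 0.0109 and 2.45, and between the sprayed classes a glutamine--fructose-6-phosphate aminotransferase (TRINITY_DN803_c0_g2_i2.p1), with 0.0333 and -0.50. Features above the threshold carry no description and were not analysed here as members.

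In the fit used here, 41 of 45 members were called in the response of S, 20 higher and 21 lower after spraying, where 25.4% of all features tested (13.5% higher, 11.8% lower) and 79.2% of the described features were called. In the response of R 9 members were called, 7 higher and 2 lower, against 9.14% of all features (5.63% higher, 3.51% lower) and 29.1% of the described ones. Because these contrasts chose the members, nothing is read from the counts. The median log2 difference of the members was -0.14 in S and -0.05 in R, and that of all features was -0.01 in both. Scaled by library totals alone, the median of all features in the response of S moved to 0.30 and the split of the member calls to 21 higher and 5 lower, so the lower values below are relative to the TMM scale.

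**Figure D1:**
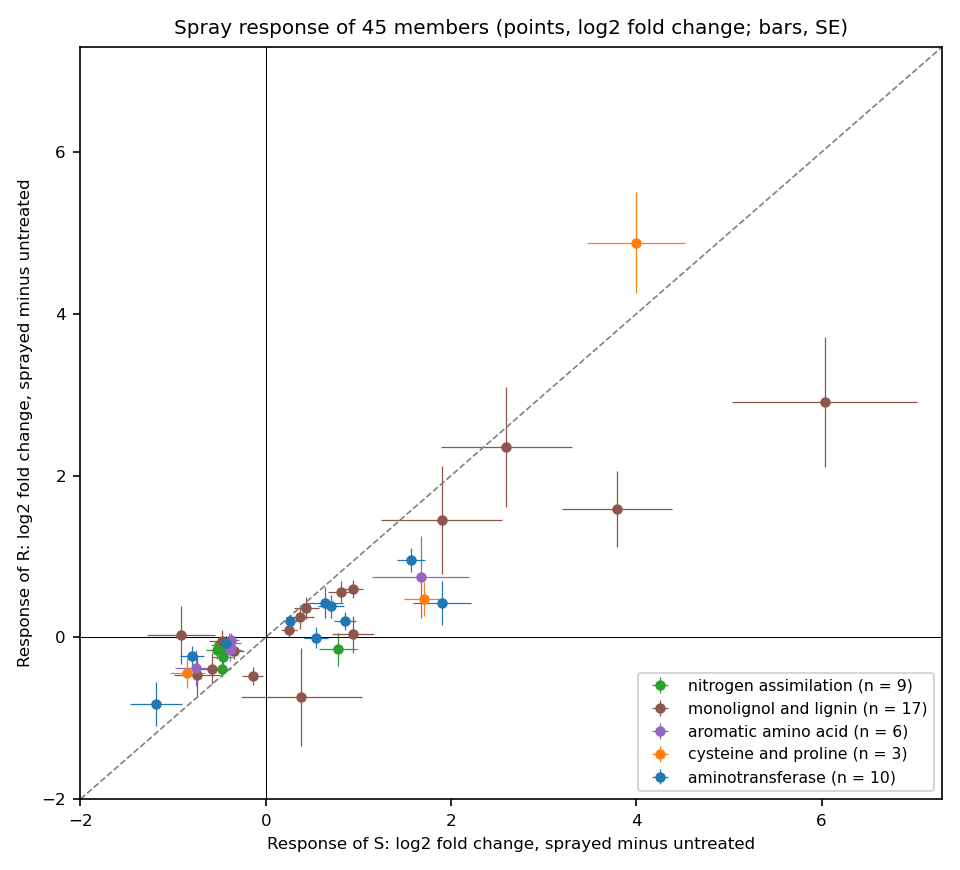
Log2 difference between sprayed and untreated leaves in susceptible plants (horizontal axis) and in resistant plants (vertical axis) for 45 members, coloured by enzyme role, with bars for the standard error and a dashed line of equal values. The members of nitrogen assimilation lie in a tight group between -0.53 and -0.42 in S except for glutamate dehydrogenase 2 at 0.78, while a cysteine synthase-like member lies at 4.0 in S and 4.88 in R.

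Reading frames of glutamine synthetase, glutamate synthase and nitrate reductase were lower in sprayed than in untreated susceptible leaves, and glutamate dehydrogenase 2 was higher. Of 9 members of nitrogen assimilation, 8 were called lower in the response of S, where 11.8% of all features were called lower and 79.2% of the described features were called in either direction. In R, 1 of 9 was called lower, against 3.51% of all features. The median was -0.47 in S and -0.13 in R. In the difference between the responses 0 of 9 were called, against 0.563% of all features. Between untreated R and S the median was already -0.19, with 1 of 9 called lower (1.36% of all features lower). These contrasts chose the members, so the counts are a description of them. The 8 are reading frames of only 3 contigs, so they are not 8 independent genes. In the chloroplast glutamine synthetase (TRINITY_DN544_c0_g1_i31.p3), which binds ammonium to glutamate, untreated levels were 495, 498, 525 and 588 CPM in S1 and 540, 457, 530 and 539 CPM in S2. Its sprayed levels were 366, 323, 402 and 352 CPM in S1 and 470, 387, 351 and 471 CPM in S2. All 4 sprayed S1 libraries lay below every untreated S1 library, and in S2 a pair of sprayed libraries reached just above the lowest untreated one. In R the same feature ran from 374 to 552 CPM before and from 359 to 508 CPM after spraying, and these ranges overlapped. This was a log2 difference of -0.42 ± 0.08 in S and -0.09 ± 0.08 in R.

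Ferredoxin-dependent glutamate synthase (TRINITY_DN1558_c0_g1_i52.p2), which makes 2 glutamates from glutamine and oxoglutarate with photosynthetic electrons, had the clearest separation of the group. Untreated susceptible leaves ran from 434 to 504 CPM (median 469) and sprayed ones from 282 to 397 CPM (median 321), with no overlap. Resistant leaves ran from 298 to 502 CPM (median 402) before and 322 to 439 CPM (median 383) after spraying. The log2 difference was -0.51 ± 0.08 in S and -0.09 ± 0.08 in R. The other 3 reading frames of this contig differed by -0.48, -0.47 and -0.43 in S.

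Nitrate reductase, which reduces nitrate to nitrite and is the entry step of assimilation, was the member of this group that was also called lower in R. Its frame TRINITY_DN1722_c0_g1_i6.p2 had 233, 172, 189 and 207 CPM in untreated S1, 198, 172, 213 and 197 in untreated S2, and 119 to 166 CPM in the 8 sprayed susceptible libraries, below all untreated ones. In R the values went from 131 to 230 CPM (median 166) to 105 to 149 CPM (median 134), and these ranges overlapped. Spraying gave a log2 difference of -0.48 ± 0.10 in S and -0.40 ± 0.10 in R. The other frame of the contig (TRINITY_DN1722_c0_g1_i6.p1) was lower in untreated resistant than untreated susceptible leaves by -0.45 ± 0.11, with 57.7 to 97.2 CPM against 88.2 to 128 CPM. That call was lost without untreated R1 replicate 1, without untreated R2 replicate 2, without untreated R2 replicate 3, with library totals alone and when the frames of a gene were summed.

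Glutamate dehydrogenase 2 (TRINITY_DN12468_c0_g1_i6.p1), a mitochondrial enzyme that releases ammonium from glutamate, went the other way. It ran from 2.11 to 4.04 CPM in untreated and from 2.85 to 8.12 CPM in sprayed susceptible leaves, which overlapped, and the log2 difference was 0.78 ± 0.20 in S and -0.15 ± 0.20 in R.

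Features described as photosynthetic were lower in the same leaves. In S 34 of 39 were called lower and none higher, with a median of -0.51 (11.8% of all features were called lower, and 79.2% of the described ones in either direction). In R 9 of 39 were called lower, with a median of -0.24 (3.51% of all features lower, 29.1% of the described ones in either direction). They too carry a description only because the authors listed them in these comparisons. Between untreated classes 11 of 39 were called lower in R (1.36% of all features lower, 12.8% of the described ones in either direction). Whether the level of photosynthetic RNA has a part in the values of the nitrogen enzymes was not tested. With library totals alone, 6 of the 8 lower calls of this group in S were lost.

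**Figure D2:**
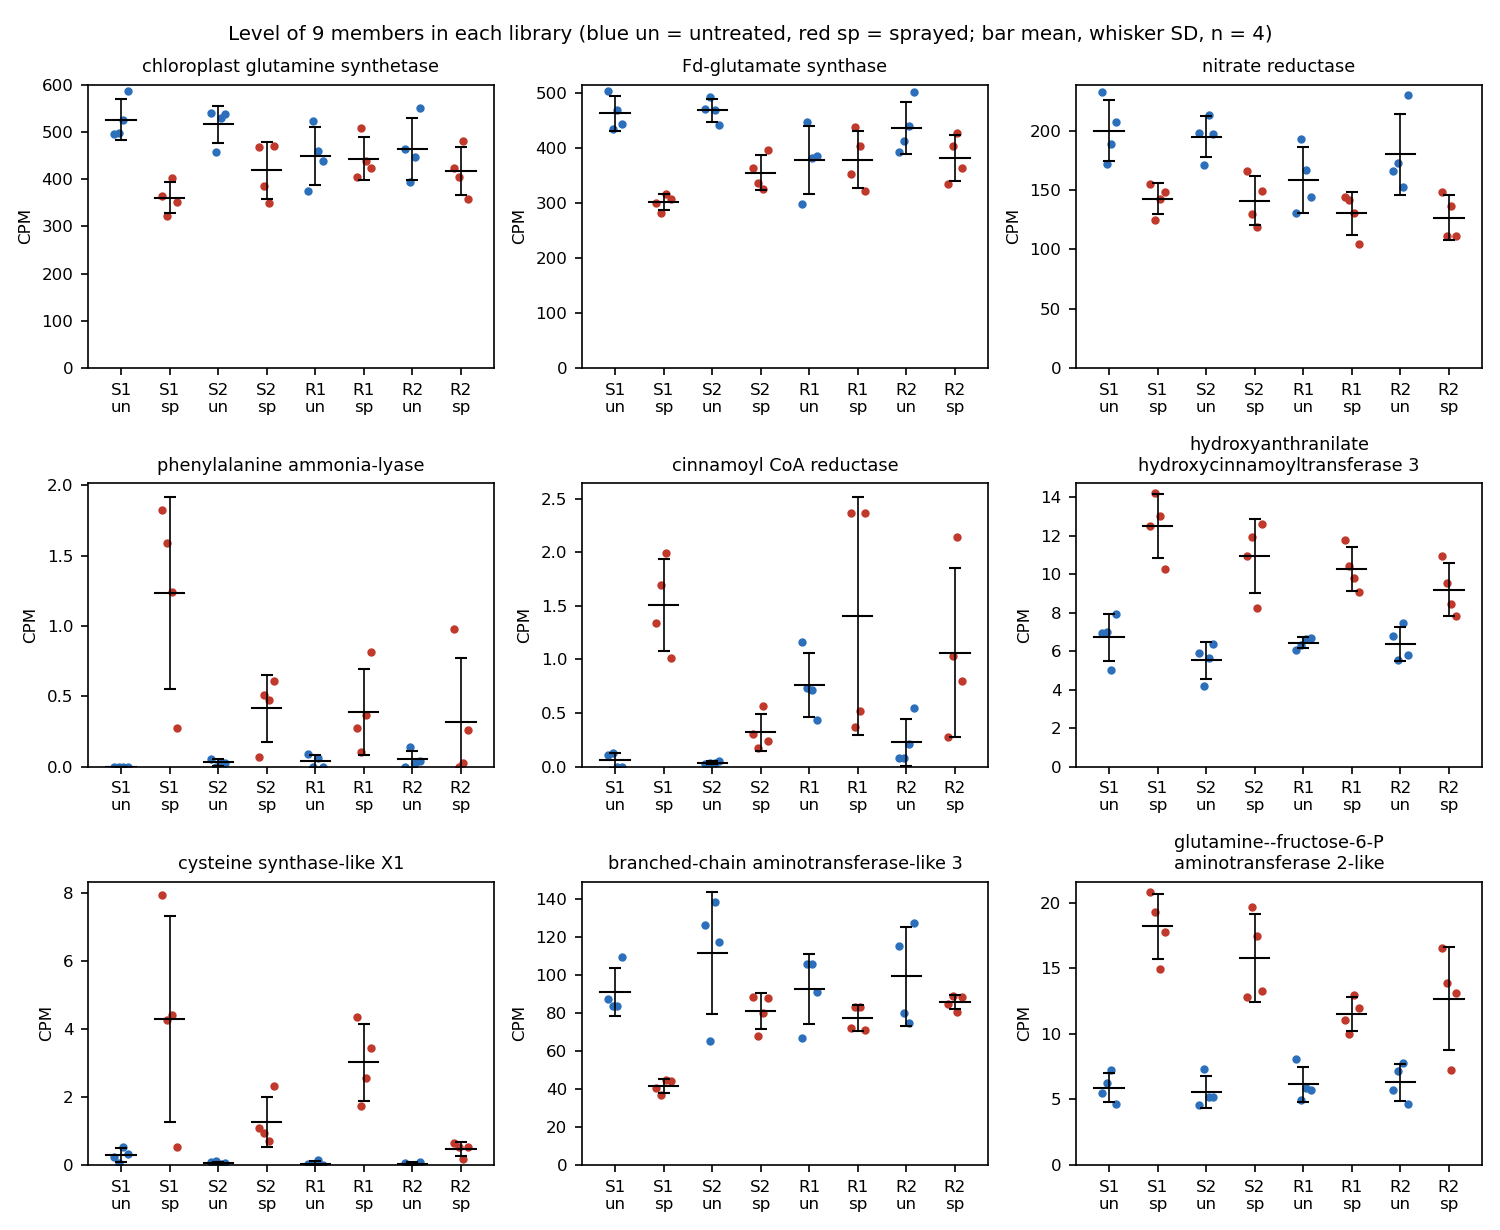
CPM of 9 members in every library, by population and treatment (blue untreated, red sprayed), with a bar at the mean and a whisker for the SD of 4 replicates; each panel has its own linear axis from 0. The 3 nitrogen enzymes of the top row are lower in sprayed S1 and S2, phenylalanine ammonia-lyase is at 0 CPM in all 4 untreated S1 libraries, and branched-chain aminotransferase-like 3 is at 37.0 to 44.9 CPM in sprayed S1 and at 67.9 CPM or more in every other sprayed library.

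In the group named lignin route, the ratios between sprayed and untreated leaves were large for features with few counts and small for most others. Its counts are not of lignin enzymes alone. The frames of a hydroxyanthranilate hydroxycinnamoyltransferase were among the higher calls in S and in R. A putrescine hydroxycinnamoyltransferase was among the lower calls in S. Of 17 members tested, 9 were called higher and 4 lower in the response of S (13.5% and 11.8% of all features), and 5 higher and 1 lower in R (5.63% and 3.51%), given as a description like all counts in these contrasts. Phenylalanine ammonia-lyase, which opens the route, was represented by 6 features. The feature TRINITY_DN30992_c0_g3_i1.p1 had no count in any untreated S1 library, and 1.82, 1.59, 1.2 and 0.274 CPM in sprayed S1. It stood 57.6-fold higher in sprayed S1 if untreated S1 is set at 3 counts over the group. With the actual counts, 0 before and 193 after spraying, the ratio has no estimate. Its 95% interval for counting error, which does not use the floor, starts at 46.4. In S2 it had 0.0547, 0, 0.0337 and 0.0261 CPM before and 0.068, 0.510, 0.474 and 0.609 CPM after spraying. Untreated and sprayed susceptible libraries did not overlap. Over all susceptible libraries, 4 counts before stood against 247 after spraying, a ratio of 59.1 with a 95% interval of 22.8 to 219 for counting error only. In R, 12 counts stood against 101, a ratio of 8.11 with an interval of 4.44 to 16.2, and the libraries overlapped, since sprayed R1 replicate 2 and sprayed R2 replicates 2 and 3, at 0.102, 0 and 0.0271 CPM, lay below the highest untreated library at 0.138 CPM. The call in R was lost without sprayed R2 replicate 1 and with a replicate block.

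Other low phenylalanine ammonia-lyase features pointed the same way with less separation. TRINITY_DN24037_c0_g1_i1.p1 had 28 counts in untreated and 177 in sprayed susceptible libraries, a ratio of 6.05 (95% interval 4.05 to 9.36, counting error). Sprayed S1 replicate 1 alone had 2.11 CPM, where the other 3 sprayed S1 libraries had 0.286, 0.267 and 0.0822 CPM, and without it the log2 difference in S was 1.75 and no longer called. In R it had 17 against 94 counts, and that call was lost in 13 of 22 settings. The feature that failed the filter, TRINITY_DN107652_c0_g2_i2.p1, had 3 counts in untreated and 47 in sprayed susceptible libraries. Phenylalanine ammonia lyase II (TRINITY_DN55539_c0_g1_i2.p1) had 20 against 83 counts in S, a call lost in 9 of 22 settings, and 18 against 49 in R. These features resemble each other by name, and reads of similar copies could have been split between them in the authors' counting.

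The phenylalanine ammonia-lyase features with more counts differed less. TRINITY_DN3892_c0_g1_i15.p1 had a log2 difference of 0.94 ± 0.23 in S and 0.04 ± 0.23 in R, with a median of 2.78 CPM before and 5.42 CPM after spraying in S. TRINITY_DN11_c0_g2_i1.p1 ran from 29.6 to 41.0 CPM in untreated and from 33.8 to 47.9 CPM in sprayed susceptible leaves, a log2 difference of 0.25 ± 0.09 whose call was lost in 11 of 22 settings, and of 0.10 ± 0.09 in R.

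Downstream of it, 4-coumarate--CoA ligase-like 1 (TRINITY_DN923_c0_g1_i4.p1), named for the enzyme that activates cinnamic acids to CoA esters, was called lower in R and not in S. It ran from 8.07 to 11.4 CPM in untreated and from 5.45 to 9.61 CPM in sprayed resistant leaves, which overlapped. Its log2 difference was -0.48 ± 0.11 in R and -0.14 ± 0.11 in S. The difference between these responses was not called.

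Cinnamoyl-CoA reductase, which commits CoA esters to monolignols, was represented by features that moved in both directions. TRINITY_DN94743_c0_g1_i1.p1 had 0.106, 0.128, 0 and 0 CPM in untreated S1 and 0.0273, 0.0366, 0.0337 and 0.0521 CPM in untreated S2. After spraying it had 1.34, 1.69, 1.99 and 1.01 CPM in S1 and 0.306, 0.170, 0.563 and 0.237 CPM in S2. Every sprayed susceptible library lay above every untreated one, with 277 against 13 counts, a ratio of 20.4 (95% interval 11.7 to 38.8, counting error).

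In resistant plants the same reductase was already higher without spraying. Untreated R1 had 1.16, 0.731, 0.716 and 0.439 CPM and untreated R2 0.0750, 0.0830, 0.209 and 0.543 CPM, together 125 counts against 13 in untreated S, a ratio of 9.68 (95% interval 5.46 to 18.7, counting error). R1 lay above every untreated susceptible library and R2 overlapped with them. Sprayed resistant libraries ran from 0.272 to 2.37 CPM, a log2 difference of 1.59 ± 0.47 in R whose call was lost in 9 of 22 settings.

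The other reductase features were smaller in effect. TRINITY_DN4391_c0_g2_i2.p1 differed by -0.47 ± 0.14 in S, from a median of 6.12 to 4.99 CPM, and the 2-like form (TRINITY_DN7787_c0_g1_i2.p1) by -0.34 ± 0.11, a call lost without untreated S2 replicate 1. The 1-like form (TRINITY_DN245_c0_g2_i2.p1) was 0.44 ± 0.14 higher in sprayed S, a call lost without sprayed S2 replicate 3. Laccase-4 (TRINITY_DN35943_c0_g1_i1.p1), of a family that couples monolignols into lignin in Arabidopsis, differed by -0.58 ± 0.19 in S, and leaving out any of 4 single libraries ended that call.

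Hydroxycinnamoyltransferases divert the same CoA esters to amides. Hydroxyanthranilate hydroxycinnamoyltransferase 3 (TRINITY_DN1246_c0_g1_i15.p4), of the enzymes that make avenanthramides in oat, was higher after spraying in all 4 populations. It had 6.96, 6.97, 5.03 and 7.93 CPM in untreated S1 and 12.5, 14.2, 13.0 and 10.3 CPM in sprayed S1, and it went from 4.17 to 6.36 CPM to 8.23 to 12.6 CPM in S2. In R it ran from 5.54 to 7.45 CPM before and from 7.82 to 11.8 CPM after spraying. Sprayed and untreated libraries did not overlap in either class. The fitted log2 response was 0.94 ± 0.11 in S and 0.60 ± 0.11 in R, and the other frame of the contig differed by 0.81 and 0.56.

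The features named putrescine hydroxycinnamoyltransferase, which in rice join hydroxycinnamates to putrescine, varied widely within groups. Form 3 (TRINITY_DN11086_c0_g1_i3.p1) ran from 0.337 to 2.89 CPM in untreated susceptible and from 0.192 to 10.6 CPM in untreated resistant leaves, a log2 difference of 2.22 ± 0.64 whose call was lost in 15 of 22 settings. A 1-like form (TRINITY_DN8758_c0_g1_i2.p1) differed by -0.75 ± 0.25 in the response of S, with ranges of 5.12 to 18.3 and 3.69 to 10.3 CPM, and the call was lost in 7 of 22 settings.

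The members matched by chorismate, shikimate or tryptophan synthase were of mixed function, and none was called in R. The feature described as probable inactive shikimate kinase like 2 (TRINITY_DN310_c0_g1_i27.p1), a relative of shikimate kinase that lacks that activity in Arabidopsis, ran from 75.4 to 100 CPM (median 82.8) in untreated and from 57.6 to 73.9 CPM (median 65.0) in sprayed susceptible leaves, with no overlap. Its response was -0.37 ± 0.07 (log2) in S and -0.13 ± 0.07 in R. It was 0.37 ± 0.07 higher in sprayed resistant than sprayed susceptible leaves, and that call was lost with library totals alone (0.29) and with the frames of the gene summed (0.02).

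Aminodeoxychorismate synthase, which sends chorismate to folate, had a log2 difference of -0.37 ± 0.09 in S for the frame TRINITY_DN6828_c0_g1_i73.p1, and the alpha chain of tryptophan synthase (TRINITY_DN1405_c0_g1_i42.p2), which releases indole, one of -0.75 ± 0.22. The remaining pair are caffeoylshikimate esterases, enzymes of lignin synthesis that the word shikimate caught. One (TRINITY_DN11770_c1_g1_i2.p1) differed by -0.40 ± 0.13 in S, a call lost without sprayed S2 replicate 1, and the esterase-like one (TRINITY_DN10354_c0_g1_i25.p3) had 36 counts in untreated and 112 in sprayed susceptible libraries, a ratio of 2.98 (95% interval 2.03 to 4.46, counting error). That call was lost without sprayed S1 replicate 1 and without sprayed S2 replicate 2.

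Cysteine synthases, which join sulfide to O-acetylserine, were higher in sprayed susceptible leaves, and 1 of them also in R. The cysteine synthase-like isoform X1 (TRINITY_DN67828_c0_g1_i13.p1) had 49 counts in untreated and 831 in sprayed susceptible libraries, a ratio of 16.2 (95% interval 12.2 to 22.1, counting error), and 10 against 465 counts in resistant libraries, a ratio of 44.8 (24.1 to 94.0). Sprayed S1 had 7.94, 4.27, 4.40 and 0.520 CPM and sprayed S2 had 1.09, 0.935, 0.711 and 2.33 CPM. Untreated susceptible libraries ran from 0.0337 to 0.537 CPM, which just overlapped with the lowest sprayed S1 library. In R the untreated libraries, at most 0.149 CPM, lay below all sprayed ones. The fitted log2 response was 4.0 ± 0.53 in S and 4.88 ± 0.62 in R.

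Cysteine synthase 2 (TRINITY_DN9138_c0_g2_i6.p2) ran from 0.369 to 0.704 CPM in untreated and from 1.18 to 3.57 CPM in sprayed susceptible leaves, with no overlap. In R it ran from 0.443 to 1.27 CPM and from 0.695 to 1.79 CPM, which overlapped. The log2 difference was 1.71 ± 0.21 in S and 0.48 ± 0.21 in R. It was the 1 member of 45 called in the difference between the responses, at -1.23, where 0.563% of all features were called, and that call was lost in 27 of 37 settings.

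Proline dehydrogenase 2 (TRINITY_DN806_c0_g1_i1.p3), which starts the breakdown of proline, had a log2 difference of -0.85 ± 0.19 in S and -0.44 ± 0.19 in R. In S it ran from 3.04 to 5.89 CPM before and from 1.80 to 3.20 CPM after spraying. The ranges met only at their ends. It was 0.70 ± 0.19 higher in sprayed resistant than sprayed susceptible leaves, a call lost in 13 of 22 settings.

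The 10 aminotransferases, all of them listed in the authors' deposited table for the response of S, were all called there, 7 higher and 3 lower, where 25.4% of all features and 79.2% of the described features were called. In R 1 of 10 was called, near the 9.14% of all features. Glutamine--fructose-6-phosphate aminotransferase 2-like (TRINITY_DN803_c0_g2_i2.p1), the entry enzyme of hexosamine synthesis, was the one called in both classes. It had 5.46, 6.27, 7.21 and 4.69 CPM in untreated S1 and 20.8, 19.3, 14.97 and 17.8 CPM in sprayed S1, and 4.59, 7.32, 5.22 and 5.16 against 12.8, 19.7, 17.5 and 13.3 CPM in S2. Sprayed R1 had 11.1, 9.98, 13.0 and 12.0 CPM and sprayed R2 16.5, 13.9, 7.22 and 13.2 CPM, where untreated R ran from 4.64 to 8.08 CPM. Untreated and sprayed libraries were separate in S, and in R a single sprayed library, R2 replicate 3, overlapped. By population the response was 1.63 (S1), 1.51 (S2), 0.90 (R1) and 1.00 (R2) on the log2 scale, each ± 0.21.

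The alanine--glyoxylate aminotransferase 2 homolog 3 (TRINITY_DN57_c0_g2_i2.p3) did not overlap between the untreated classes, a comparison that helped to choose the members. It ran from 0.135 to 0.450 CPM in untreated susceptible leaves and had 5.79, 1.35, 1.58 and 3.10 CPM in untreated R1 and 1.02, 2.27, 1.93 and 1.30 CPM in untreated R2. Sprayed susceptible leaves ran from 0.575 to 2.33 CPM and sprayed resistant ones from 1.92 to 3.86 CPM, which overlapped. The log2 difference between classes was 2.71 ± 0.31 untreated and 1.23 ± 0.28 sprayed, the latter no longer called with library totals alone, and the response was 1.91 ± 0.31 in S and 0.43 ± 0.28 in R.

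Between untreated classes 6 members were called, 5 higher and 1 lower in R, against 4.12% of all features (2.76% higher, 1.36% lower) and 12.8% of the described ones. Between sprayed classes 4 were called, all higher in R, against 2.3% of all features (1.55% higher, 0.751% lower) and 7.02% of the described ones. Besides those given above, the ornithine aminotransferase frame TRINITY_DN20787_c0_g1_i2.p2 and mitochondrial aspartate aminotransferase (TRINITY_DN2982_c0_g1_i5.p1) were higher in untreated R, by 0.76 ± 0.12 and 0.50 ± 0.13. The first call was kept in all 22 settings, and the second was lost in 7, each of which left out 1 library. The other ornithine aminotransferase frame (TRINITY_DN20787_c0_g1_i2.p1) was not called there. Its ranges overlapped, at 2.78 to 5.34 CPM in untreated S and 3.89 to 6.31 CPM in untreated R. Branched-chain-amino-acid aminotransferase-like protein 3 (TRINITY_DN2401_c0_g1_i2.p1) was 0.49 ± 0.13 higher in sprayed R, a call lost in 10 of 22 settings. The count without untreated R2 replicate 2, or without untreated R2 replicate 3, was 3 between untreated classes. In the sprayed comparison it was 2 without sprayed S1 replicate 1, S2 replicate 3, R1 replicate 3, R2 replicate 2 or R2 replicate 3. Features of histones, cyclins and tubulins, the list for dividing tissue, were called higher in untreated R for 7 of 19, with none lower, and their summed share was 0.0283% to 0.0377% of counts in untreated S and 0.0289% to 0.0675% in untreated R. Their part in the class differences was not tested.

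The branched-chain-amino-acid aminotransferase-like protein 3 (TRINITY_DN2401_c0_g1_i2.p1), named for the enzymes that make and break down valine, leucine and isoleucine, separated the sprayed susceptible populations. It had 40.7, 37.0, 44.9 and 44.1 CPM in sprayed S1 and 88.5, 67.9, 80.3 and 87.9 CPM in sprayed S2, with no overlap. Sprayed R1 and R2 ran from 71.3 to 88.8 CPM, so S1 stood below all other sprayed libraries. The log2 difference of sprayed S2 from S1 was 0.96 ± 0.18, with an adjusted p of 0.0063 in edgeR's quasi-likelihood test with Benjamini-Hochberg adjustment, and it remained called in all 14 alternative settings. Before spraying the populations overlapped, at 83.5 to 110 CPM in S1 and 65.5 to 138 CPM in S2, with a log2 difference of 0.30 ± 0.18 (edgeR adjusted p = 0.944). The difference between the responses of S2 and S1 was 0.66 ± 0.25 and was not called (edgeR adjusted p = 0.47).

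Ornithine aminotransferase (TRINITY_DN20787_c0_g1_i2.p2), a mitochondrial enzyme that links ornithine with glutamate and proline, was the other member called between populations. It had 12.4, 12.4, 15.8 and 9.04 CPM in sprayed S1 and 6.90, 8.78, 8.15 and 8.05 CPM in sprayed S2. The groups did not overlap, but the lowest S1 library lay within 0.3 CPM of the highest S2 library. The log2 difference was -0.64 ± 0.16 (edgeR adjusted p = 0.046), and leaving out any of 7 of the 8 sprayed susceptible libraries, all but S1 replicate 4, ended the call. The other frame of the contig differed by -0.66 ± 0.20 and was not called (edgeR adjusted p = 0.0994).

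**Figure D3:**
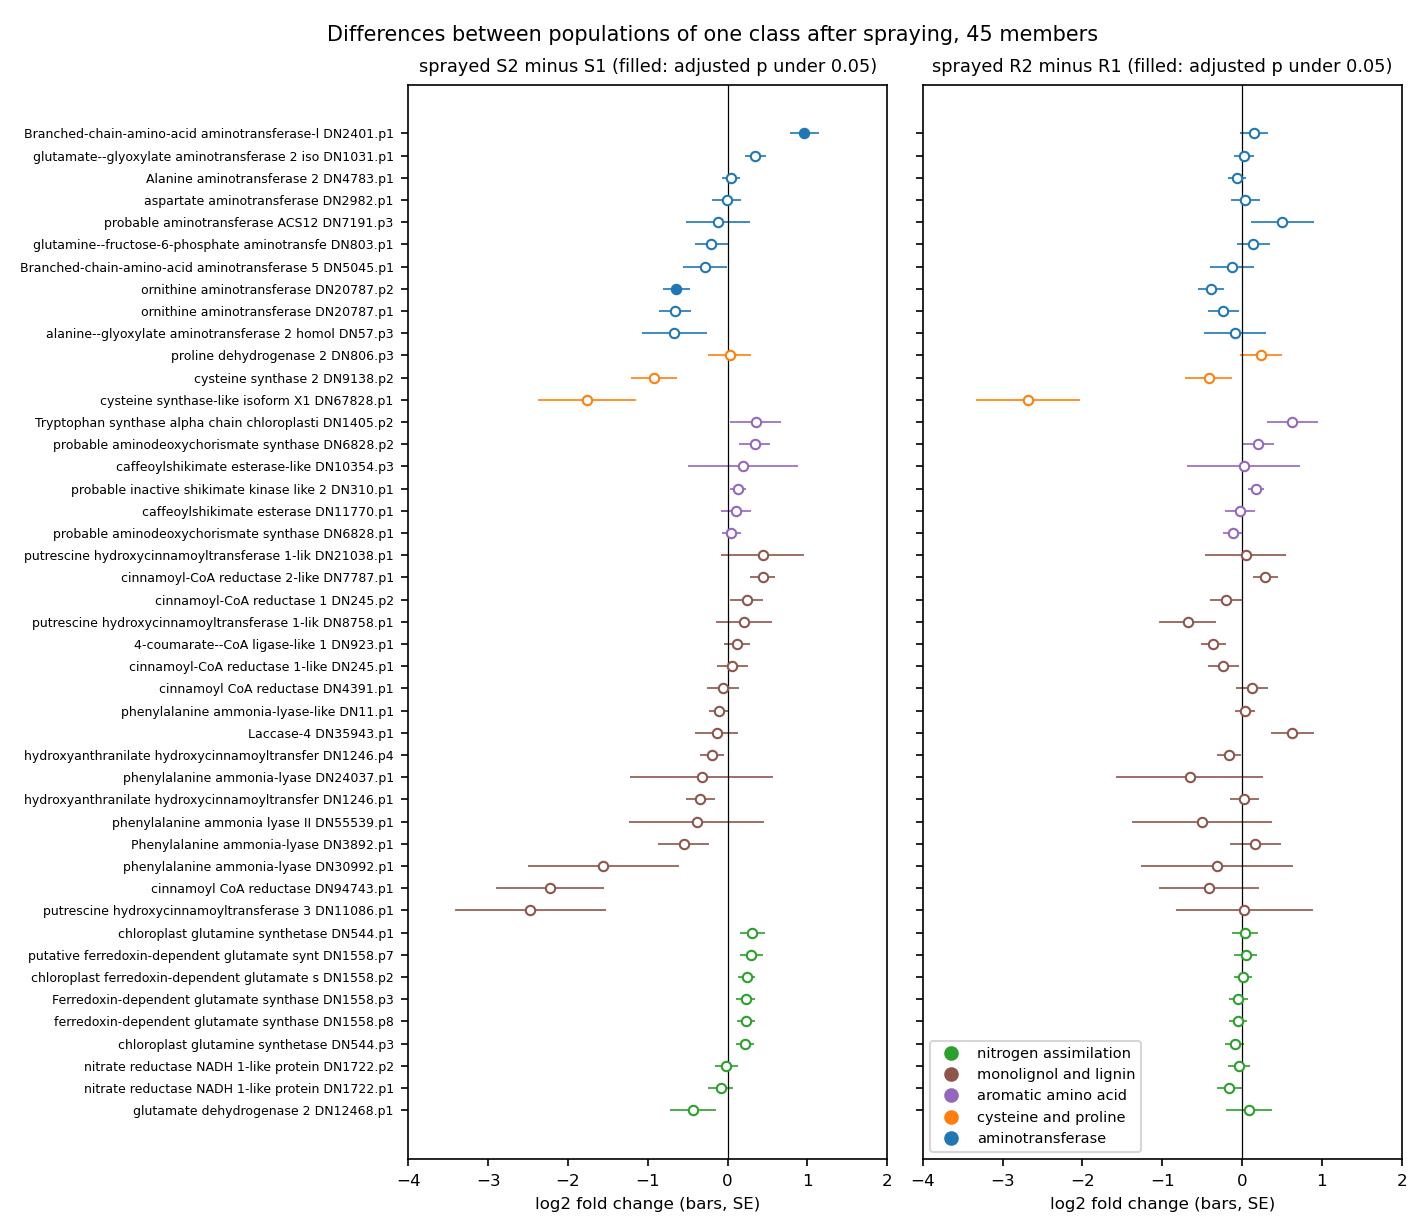
Log2 difference between the sprayed susceptible populations (left, S2 minus S1) and the sprayed resistant populations (right, R2 minus R1) for 45 members, with bars for the standard error and filled points where the adjusted p was under 0.05. The filled points are branched-chain aminotransferase-like 3 at 0.96 and an ornithine aminotransferase frame at -0.64, both in the left panel.

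These were the 2 members of 45 called between sprayed S2 and S1, where 1.34% of all features and 3.57% of the described features were called, and 11 members had an unadjusted p under 0.05. DESeq2 called 5 members there. Between sprayed R2 and R1 edgeR called 0 members against 0.407% of all features, with 4 at an unadjusted p under 0.05, and DESeq2 called 1. Both tools called 0 members between untreated S2 and S1 (0.00799% of all features by edgeR), between untreated R2 and R1 (0.0399%), between the responses of S2 and S1 (0.028%) and between the responses of R2 and R1 (0.00399%). In edgeR the members with an unadjusted p under 0.05 in these 4 comparisons were 2, 2, 6 and 1. The median log2 difference of the members was -0.01 between sprayed S2 and S1 and -0.03 between sprayed R2 and R1, against 0.00 and 0.01 for all features. Members were chosen in comparisons that pooled the populations of a class and used these same libraries. The choice is therefore not independent of the differences between populations, and its effect on these counts was not tested.

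A pair of members near a call are given because of their size, chosen after their values were seen. The cysteine synthase-like isoform X1 had 4.35, 1.73, 2.55 and 3.45 CPM in sprayed R1 and 0.653, 0.528, 0.163 and 0.519 CPM in sprayed R2, which did not overlap, and a log2 difference of -2.69 ± 0.65 (edgeR adjusted p = 0.0642). Cinnamoyl CoA reductase TRINITY_DN94743_c0_g1_i1.p1 was lower in every sprayed S2 library than in every sprayed S1 library, with a log2 difference of -2.23 ± 0.68 (edgeR adjusted p = 0.102). Neither passed the threshold.

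A list of neighbouring steps, matched by description, held 59 features that are no members, and 58 of them were tested. It was lower in the later-numbered population wherever it was called between sprayed populations. In S2 against S1, 7 features were called lower (0.739% of all features lower, 3.57% of the described ones in either direction). In R2 against R1, 5 were called lower (0.32% of all features), and none was called higher in either comparison. Several of these are reading frames of the same enzyme, so they are not as many independent genes. All 3 frames of 1-pyrroline-5-carboxylate synthetase, which starts proline synthesis from glutamate, were among both sets. Its frame TRINITY_DN4232_c0_g1_i24.p2 differed by -1.36 ± 0.21 between sprayed S2 and S1 and by -1.48 ± 0.21 between sprayed R2 and R1 (edgeR adjusted p = 0.0009 and 0.0006).

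The others were enzymes of branched-chain amino acid synthesis, the route that supplies the branched-chain aminotransferases. The large subunit of 3-isopropylmalate dehydratase (TRINITY_DN311_c0_g1_i24.p1), of leucine synthesis, differed by -1.51 ± 0.20 and -1.14 ± 0.20 in the same comparisons, and was the 1 neighbour called between the responses of S2 and S1, at -1.58 ± 0.28 (edgeR adjusted p = 0.0224). Threonine dehydratase (TRINITY_DN5662_c0_g1_i2.p2), which commits threonine to isoleucine, differed by -0.95 ± 0.20 and -0.84 ± 0.20. Its other frame and the small subunit of 3-isopropylmalate dehydratase were called only between sprayed S2 and S1. In the same sprayed S2 leaves the branched-chain aminotransferase-like 3 was higher.

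As a description, 22 of the 58 neighbours were called higher and 17 lower in the response of S, and 11 higher and 1 lower in R. The neighbours are described features, of which 79.2% were called in either direction in S and 29.1% in R. Of all features, 25.4% were called in S and 9.14% in R. Nothing is read from the counts of neighbours. The neighbours named in this paragraph were chosen after their values were seen and do not stand for their pathways. In S the 1-pyrroline-5-carboxylate synthetase frame TRINITY_DN4232_c0_g1_i24.p2, of proline synthesis, stood at 1.92 ± 0.15. The proline dehydrogenase, of proline breakdown, stood at -0.85. Among lignin steps, putative cinnamyl alcohol dehydrogenase 5 (TRINITY_DN1435_c0_g1_i15.p1), which makes monolignols, stood at 2.54 ± 0.29 in S and 1.12 ± 0.28 in R, and a caffeoyl-CoA O-methyltransferase 2 (TRINITY_DN119_c0_g1_i4.p1) at 0.65 ± 0.13 in S. Of the photorespiratory enzymes beside glutamine synthetase and glutamate synthase, serine hydroxymethyltransferase 1 (TRINITY_DN5652_c0_g1_i39.p2) stood at -0.40 ± 0.10, and the member glutamate--glyoxylate aminotransferase 2 (TRINITY_DN1031_c0_g1_i6.p1), which makes glycine in peroxisomes, at -0.43 ± 0.09.

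Members share contigs with other reading frames, and the frames of a contig need not measure the same RNA. The 37 member contigs held 78 reading frames, and 14 contigs held 1. On 18 contigs at least 2 frames were tested, and on 16 of these all frames had 1 sign in the response of S. The exceptions were the contigs of cysteine synthase 2 and of the inactive shikimate kinase-like member. Cysteine synthase 2, at 1.71, shared its contig with a pentatricopeptide repeat protein frame (TRINITY_DN9138_c0_g2_i6.p1) with a mean of 27.3 CPM that differed by -0.29 ± 0.10, and the sum of the frames stood at -0.20. The inactive shikimate kinase-like frame, at -0.37, lay beside TRINITY_DN310_c0_g1_i27.p2 and TRINITY_DN310_c0_g1_i27.p3, at 0.84 ± 0.10 and 0.81 ± 0.10, and the sum of its frames stood at 0.15. Whether the frames overlap or lie on opposite strands is not known here, so reads of 1 frame may be counted in another.

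**Figure D4:**
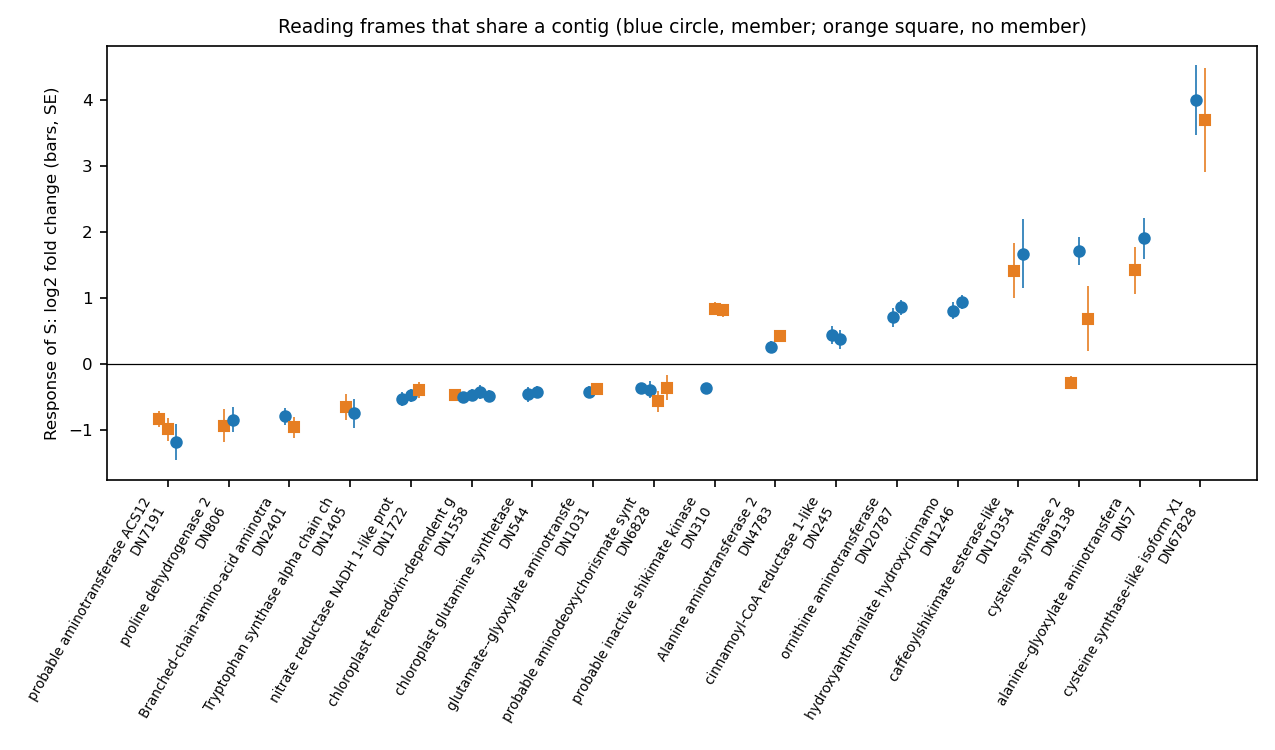
Log2 difference in the response of S, with bars for the standard error, for every tested reading frame on the 18 member contigs with at least 2 tested frames (blue circles members, orange squares other frames). Frames of a contig lie on the same side of 0 on 16 contigs, and the contigs of cysteine synthase 2 and the inactive shikimate kinase-like member have frames on both sides.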

How the data were processed

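The authors deposited raw counts per reading frame in 32 columns, each matched to a labelled library by name, and a table of their log2 fold changes with an adjusted p-value for 4 comparisons. Per the submitters' processing notes, the tools were R 3.6.1 with DESeq2 1.24.0, the aligner STAR 2.5.2b and FastQC 0.11.5; assembler, counter and strand setting are not given in the sources used here, and per the labels the libraries were ribosome-depleted and stranded. Counts were filtered (filterByExpr, minimum count 10 and minimum total 15, by 8 groups), scaled with TMM and fitted in edgeR 4.0.16 (R 4.3.3, limma 3.58.1) with 8 group means, 24 residual degrees of freedom, robust quasi-likelihood; the common biological coefficient of variation was 0.389. Contrasts weight populations equally, and p-values were adjusted by Benjamini-Hochberg over all 25036 features. DESeq2 1.42.0 was an alternative. The procedure was also run on counts simulated from its own fitted means and spread. Changes were set there only in features above a minimum CPM, so that run says nothing of members with few counts. Count ratios used Python 3.11.15 and scipy 1.17.1 with exact 95% intervals that cover counting error only, and 3 counts as the floor of an empty group; figures used matplotlib 3.10.9.

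Named were members called between populations (up to 3 per direction), per role the highest mean CPM and, for each response, the lowest p among higher and among lower members, the called members of the class contrasts (up to 3 per direction) and those nearest the authors' threshold; other members were chosen after their values were seen. Neighbours named for their responses were likewise chosen after their values were seen. Members, lists and tests were chosen with earlier results of these data known. Same-numbered libraries did not deviate together (mean r = -0.006 over 112 pairs, 1 above 0.1), so numbers were not treated as pairs. No libraries were duplicates. Alternatives were other scalings, no filter, DESeq2, a replicate block, counts summed per assembled gene and leaving out each library.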

Additional observations from a re-analysis of the deposited data

Results flagged for a closer look

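Within groups of 4 libraries, 22 of 365 member groups held a library far from the other 3 (Dixon's ratio above its 95% critical value), where chance gives about 1 in 20; in 12 it was the highest and in 10 the lowest. Among nitrogen enzymes, untreated R1 replicate 1 was lowest for glutamate synthase frames TRINITY_DN1558_c0_g1_i52.p8 (75.0 CPM, nearest 101) and p7 (28.0, nearest 44.5). Untreated S2 replicate 2 was lowest for glutamine synthetase TRINITY_DN544_c0_g1_i31.p3 (457 CPM, nearest 530), and untreated R2 replicate 4 was highest for glutamate dehydrogenase 2 (7.23 CPM, nearest 3.99).

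Among aminotransferases, glutamate--glyoxylate aminotransferase 2 was lowest in untreated S2 replicate 2 (95.5 CPM, nearest 159) and untreated R1 replicate 1 (95.2 CPM, nearest 128). Highest were aspartate aminotransferase in sprayed S1 replicate 1 (11.6 CPM, nearest 7.27), branched-chain aminotransferase-like 3 in untreated S1 replicate 4 (109.8 CPM, nearest 87.3) and ornithine aminotransferase TRINITY_DN20787_c0_g1_i2.p1 in untreated S2 replicate 2 (5.34 CPM, nearest 3.50). ACS12, an aminotransferase, was lowest in untreated R2 replicate 4 (0.543 CPM, nearest 0.719). Cysteine synthase 2 was lowest in sprayed S2 replicate 3 (1.18 CPM, nearest 1.35) and highest in sprayed R1 replicate 4 (1.79 CPM, nearest 1.15).

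In the lignin route, phenylalanine ammonia-lyase was highest in sprayed S1 replicate 1 for TRINITY_DN24037_c0_g1_i1.p1 (2.11 CPM, nearest 0.286), in sprayed R2 replicate 1 for TRINITY_DN3892_c0_g1_i15.p1 (5.72 CPM, nearest 3.39) and in untreated R2 replicate 2 for TRINITY_DN55539_c0_g1_i2.p1 (0.138 CPM, others 0). TRINITY_DN107652_c0_g2_i2.p1 was highest in untreated R1 replicate 4 (0.0940 CPM, others 0), sprayed R1 replicate 3 (0.184 CPM, nearest 0.0527) and sprayed R2 replicate 1 (0.109 CPM, others 0), each from 5 or fewer counts. Putrescine hydroxycinnamoyltransferase 1-like TRINITY_DN8758_c0_g1_i2.p1 was lowest in sprayed S1 replicate 3 (3.69 CPM, nearest 6.60) and sprayed R2 replicate 3 (2.74 CPM, nearest 4.56). Sprayed R2 replicate 3 was also lowest for cinnamoyl CoA reductase TRINITY_DN4391_c0_g2_i2.p1 (4.12 CPM, nearest 5.64) and highest for the 1-like form TRINITY_DN245_c0_g2_i2.p1 (16.4 CPM, nearest 13.3).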

How the results depend on the processing

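Of 63 member calls, 34 were lost in at least 1 setting and 29 were not. Cysteine synthase 2 in the response of S, counted among the 29, changed sign when the frames of its gene were summed. All calls but the 2 between sprayed S2 and S1 were in contrasts that chose the members or in a combination of them. Keeping such calls is a description of the fit. RLE size factors kept 63 of 63, DESeq2 62 of 62 with a value, no filter 57 and library totals 42. With library totals, the members called were 13 between untreated classes, 0 between sprayed classes, 26 in the response of S and 8 in the difference between the responses of R and S. Without a filter they were 1 between sprayed S2 and S1 and 0 for that difference. DESeq2 called 5 between sprayed S2 and S1, 1 between sprayed R2 and R1 and 7 for the difference. Summed per assembled gene, 2 were called between sprayed classes and 0 for the difference, and 3 values changed sign: TRINITY_DN310_c0_g1_i27.p1 (0.15) and TRINITY_DN9138_c0_g2_i6.p2 (-0.20) in the response of S, and TRINITY_DN9138_c0_g2_i6.p2 (0.26) in the difference. The causes were not tested.

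Leaving out 1 library gave 1 to 3 members between sprayed S2 and S1, 3 to 7 between untreated classes, 2 to 6 between sprayed classes, 36 to 41 in the response of S, 7 to 10 in the response of R, 0 to 4 in the difference, and 0 to 0 in the other contrasts between populations. A replicate block, whose numbers do not pair the libraries, kept 58 of the 63 calls, and gave 2 members between sprayed S2 and S1, 5 between untreated classes, 3 between sprayed classes and 41 in the response of S, all called without it as well. Of the 8 it gave in the response of R, 7 were called without it, and the 1 it gave for the difference, ornithine aminotransferase TRINITY_DN20787_c0_g1_i2.p2, was not, while cysteine synthase 2 was lost; 8 of 32 libraries correlated best with their own number. Library totals moved the median of all features to 0.21 between untreated classes, -0.31 for the difference, -0.18 between sprayed S2 and S1, -0.24 between the responses of S2 and S1, -0.15 between untreated R2 and R1 and 0.16 between the responses of R2 and R1. Members with few counts, such as phenylalanine ammonia-lyase TRINITY_DN30992_c0_g3_i1.p1, are limited by depth.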
